A study of Caenorhabditis elegans with 2 samples.

Results

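Clustered binding sites of the transcription factor ATF-7 in the nematode *Caenorhabditis elegans* were summits of chromatin immunoprecipitation (ChIP) peaks that had another summit close by. They were selected on the positions of the summits in the authors' list of 2247 peaks that passed the irreproducible discovery rate (IDR), a filter that keeps peaks ranked alike in replicates. A peak was a member when the summit of another IDR peak lay within 2000 bp of its own on the same chromosome, and members within that distance were chained into clusters. This gave 655 clustered peaks (29.1% of the list) in 283 clusters, and the other 1592 peaks are called isolated. Since the rule used the positions in the IDR list, cluster sizes and gaps are a description of that list.

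Both samples came from whole young adults of strain OP638, with the genotype unc-119(tm4063) III; wgIs638. The worms were of mixed sex, had been synchronized as L1 larvae starved after bleaching, and carried an integrated transgene for ATF-7 with GFP and FLAG at its C-terminus. The labels disagree on the antibody, naming GFP in one field and atf-7 in another. The samples were biological replicates 2 and 3 of this 1 group, from separate biosamples, and there was no other condition. Each had its own relaxed list of peaks, with 28126 peaks for replicate 2 and 30000 for replicate 3, beside 30000 for the pooled reads. The authors' signal is a value per peak on a scale of its own in each list, so it is compared here only within a list. Whole worms mix all tissues, so a site used in few cells and a site used weakly in many cannot be told apart. The transgene adds *atf-7* sequence to the genome, in a copy number that the labels do not state, which bears on the cluster at *atf-7* itself.

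ATF-7 is a bZIP protein of the ATF and CREB family, which binds DNA as dimers, and it acts below the p38 MAP kinase PMK-1 in the worm's immune response. Factors of this family recognise the cyclic-AMP response element (CRE), a palindrome made of a shorter CREB core on each strand. Basic helix-loop-helix proteins of the Myc, Max and Mad type bind another palindrome, the E-box. Genes with several regulatory sites often have them at alternative promoters, in introns and beyond the 3′ end, and a worm gene is compact enough for all of these to lie close together.

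The windows below show the CRE at summits of clusters with at least 3 summits, at *atf-7*, *xbp-1*, *nipi-3* and *mnk-1*, which the results below turn on, and at *W06H8.6*, where the site lay nearest to the summit of those shown. All are from the WBcel235 genome (RefSeq), the same assembly as ce11, on the + strand, within 100 bp of the summit and cut short where a UTR began. Capitals mark the CRE, TGACGTCA, which was searched on both strands and contains the CREB core TGACG. The CRE was found in 1.12% of all 201 bp windows laid end to end along the genome.

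atf-7, summit 230 bp upstream (chrIII:4494580-4494780): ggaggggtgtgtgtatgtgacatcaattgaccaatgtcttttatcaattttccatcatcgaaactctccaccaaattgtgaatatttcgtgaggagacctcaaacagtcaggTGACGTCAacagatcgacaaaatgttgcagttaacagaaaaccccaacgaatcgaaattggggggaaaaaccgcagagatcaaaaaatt
xbp-1, first summit (chrIII:4193653-4193808): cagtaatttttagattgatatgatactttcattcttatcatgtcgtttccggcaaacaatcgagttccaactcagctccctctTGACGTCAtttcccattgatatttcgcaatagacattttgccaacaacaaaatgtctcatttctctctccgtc
nipi-3, summit in the intron (chrX:15608749-15608949): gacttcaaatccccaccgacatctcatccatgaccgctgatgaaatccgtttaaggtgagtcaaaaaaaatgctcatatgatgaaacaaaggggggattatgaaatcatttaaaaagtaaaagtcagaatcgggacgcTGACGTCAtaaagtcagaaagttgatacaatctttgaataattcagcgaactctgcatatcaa
W06H8.6, second summit (chrV:6228512-6228712): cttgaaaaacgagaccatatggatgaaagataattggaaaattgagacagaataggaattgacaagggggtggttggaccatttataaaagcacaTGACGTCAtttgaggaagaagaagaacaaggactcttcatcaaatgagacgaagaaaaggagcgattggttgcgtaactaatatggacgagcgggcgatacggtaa
mnk-1, summit in the coding exon (chrII:10553455-10553622): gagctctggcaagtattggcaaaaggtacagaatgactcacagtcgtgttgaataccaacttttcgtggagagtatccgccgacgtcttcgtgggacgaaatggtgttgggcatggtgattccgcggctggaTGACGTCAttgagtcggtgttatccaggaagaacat
mnk-1, summit 88 bp upstream (chrII:10554184-10554371): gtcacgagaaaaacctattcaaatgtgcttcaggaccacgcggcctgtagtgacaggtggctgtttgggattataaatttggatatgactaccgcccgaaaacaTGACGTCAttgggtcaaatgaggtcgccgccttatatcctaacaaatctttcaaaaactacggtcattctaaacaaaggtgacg

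The next windows show the *mdl-1* cluster, the only one with the E-box at 3 summits. Capitals mark the E-box, CACGTG, searched in the same way and found in 3.33% of the genome's windows of 201 bp. A match describes the letters in a window and does not show which protein was bound there.

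mdl-1, summit 586 bp upstream (chrX:6741665-6741865): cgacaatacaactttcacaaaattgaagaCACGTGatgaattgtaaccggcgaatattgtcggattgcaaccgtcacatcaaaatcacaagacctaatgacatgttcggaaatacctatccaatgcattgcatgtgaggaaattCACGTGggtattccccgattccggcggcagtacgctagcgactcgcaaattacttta
mdl-1, summit 97 bp upstream (chrX:6742154-6742350): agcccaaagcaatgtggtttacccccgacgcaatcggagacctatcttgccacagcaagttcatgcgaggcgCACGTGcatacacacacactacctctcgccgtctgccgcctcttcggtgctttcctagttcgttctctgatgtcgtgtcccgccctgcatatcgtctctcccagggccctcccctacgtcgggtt
mdl-1, summit beyond the 3′ end (chrX:6743903-6744103): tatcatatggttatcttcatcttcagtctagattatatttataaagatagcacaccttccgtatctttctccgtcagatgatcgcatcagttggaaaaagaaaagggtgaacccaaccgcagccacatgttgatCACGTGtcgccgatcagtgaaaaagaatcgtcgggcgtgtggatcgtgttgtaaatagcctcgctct

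The spacing of neighbouring summits fell into 2 ranges. Of the 372 gaps inside clusters, 93 were below 400 bp and 85 of these lay between 199 and 250 bp, 5 were from 400 to 600 bp, and 274 were from 600 to 2000 bp. The smallest gap was 199 bp, both in the IDR list and in each of the 3 relaxed lists, so no closer summits could be counted. Per 100 bp of distance there were 167 gaps from 199 to 250 bp, 24.4 from 1000 to 1500 bp and 10.6 from 2000 to 3000 bp. The largest gaps inside the rule were 1984, 1990 and 1991 bp, and the smallest outside it were 2020, 2020 and 2026 bp, so the distance of 2000 bp divided a continuous range.

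**Figure D1:**
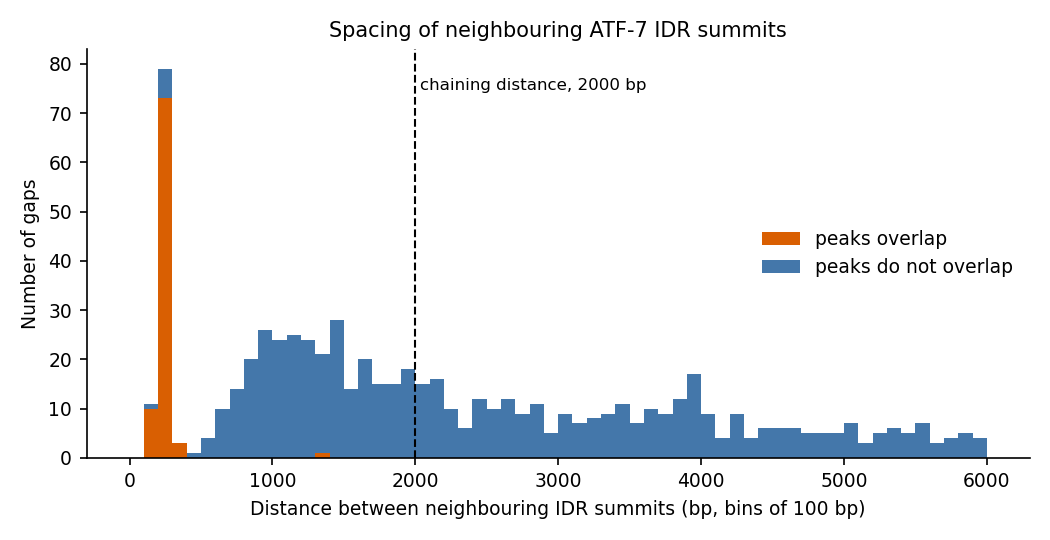
Number of gaps between neighbouring IDR summits (vertical axis) by distance in bins of 100 bp (horizontal axis, up to 6000 bp), with gaps between overlapping and non-overlapping peaks stacked. Of the overlapping neighbours all but 1 stand in the narrow column below 400 bp, and the separate ones rise from about 600 bp and run on past the dashed chaining distance.

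The close neighbours were mostly peaks that overlapped each other. There were 87 overlapping neighbours, with a median gap of 203 bp, and 285 separate ones, with a median gap of 1251 bp. Many overlapping neighbours had the same start and end, as at *mdl-1*, *tos-1* and *sup-26*, and so were summits of a single interval. In 83 of the 87 overlapping neighbours (95.4%, exact 95% interval 88.6 to 98.7) the summit at the lower coordinate had the higher pooled signal. The same held for 71 of 72 in replicate 2 and for 70 of 73 in replicate 3, counting the pairs with both summits found there within 100 bp. Among separate neighbours the lower coordinate was the stronger in 130 of 285 (45.6%, 39.7 to 51.6), with 119 of 256 in replicate 2 and 122 of 275 in replicate 3. Of the 7 separate neighbours under 400 bp apart, the lower coordinate was the stronger in 6 in the pooled list (85.7%, 42.1 to 99.6), 5 of 6 in replicate 2 and 6 of 7 in replicate 3, against 124 of 278 (44.6%, 38.7 to 50.7) from 400 bp on in the pooled list. Coordinates run the same way whatever the strand of the gene. Neighbours under 250 bp apart in the relaxed lists had the same one-sided order, with the lower coordinate stronger in 92.1% of 3483 in the pooled list, 91.5% of 2920 in replicate 2 and 91.2% of 3282 in replicate 3. At 600 to 2000 bp apart the shares were 43.8% of 12840, 45.0% of 10411 and 44.8% of 12658. Which peak caller was used is not given in the sources used here. Its part in this order was not tested. The split into overlapping and separate neighbours and the count by coordinate were chosen after the values were seen.

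**Figure D2:**
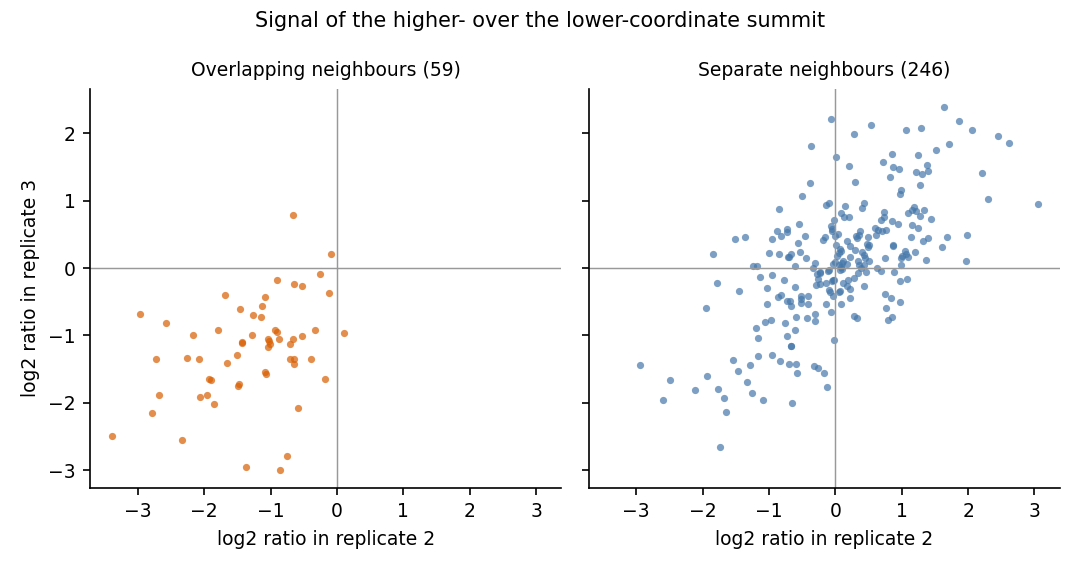
Log2 ratio of the signal at the higher-coordinate summit over that at the lower-coordinate summit of each pair of neighbours, in replicate 2 (horizontal axis) and replicate 3 (vertical axis), for the pairs with both summits found in both replicates (59 overlapping on the left, 246 separate on the right). The overlapping neighbours sit almost all below and left of 0, and the separate ones spread along the diagonal on both sides of it.

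The number of summits in a cluster depends on how overlapping peaks are taken. Of the 655 clustered peaks, 172 overlapped a neighbour and 483 overlapped none, and 50 of the 283 clusters were a single overlapping pair. With overlapping peaks merged into 1, there were 516 clustered peaks in 233 clusters, and 41 clusters had at least 3 summits in place of 63.

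Pairs made up most of the clusters. There were 220 pairs, 44 clusters of 3 summits, 15 of 4, 2 of 5, 1 of 6 and 1 of 7. Pairs held 67.2% of the clustered peaks and the 63 larger clusters held 215. The median span from first to last summit was 1282 bp (199 to 5717), and 2144 bp in clusters of 3 or more. A weaker pooled peak outside the IDR list lay within 2000 bp of 90.1% of clustered peaks and of 84.5% of isolated peaks, with a median of 2 such peaks in both groups, so isolated peaks had no other IDR peak near them but usually a weaker one.

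The signal at clustered peaks was slightly higher than at isolated ones. In the pooled list the median was 160 at clustered peaks (exact 95% interval 152 to 166) and 144 at isolated peaks (141 to 148). In replicate 2 the medians were 63.9 at clustered and 56.8 at isolated peaks, and in replicate 3 they were 105 at clustered and 93.6 at isolated peaks. Pooled values ran from 105 to 1326 at clustered and from 105 to 1586 at isolated peaks, so the groups overlapped over nearly their whole range. The IDR list is also the 2247 strongest peaks of the pooled relaxed list, which sets the common lower end. Peaks are not replicates, neighbours share sequence, and no test of these differences was made here or of the shares below. The intervals cover counting error only, and no file gives the depth of sequencing.

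Of the clustered peaks, 615 had a summit of replicate 2 no more than 100 bp away (93.9%, exact 95% interval 91.8 to 95.6), against 95.7% (94.6 to 96.7) of isolated peaks. For replicate 3 the shares were 96.3% (94.6 to 97.6) of clustered and 98.4% (97.6 to 98.9) of isolated peaks. All summits were found in both replicates in 222 of the 283 clusters, and in 169 of these (76.1%, 70 to 81.6) the same summit was the strongest in both. The share was 77.4% of 177 pairs, 67.6% of 34 clusters of 3 and 81.8% of 11 clusters of 4 or more. In the 170 such clusters with no overlapping peaks it was 71.2%. The IDR filter keeps peaks ranked alike in replicates, so none of these shares is independent of how the list was made. With so few summits per cluster, unrelated orders would also often share the strongest one.

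**Figure D3:**
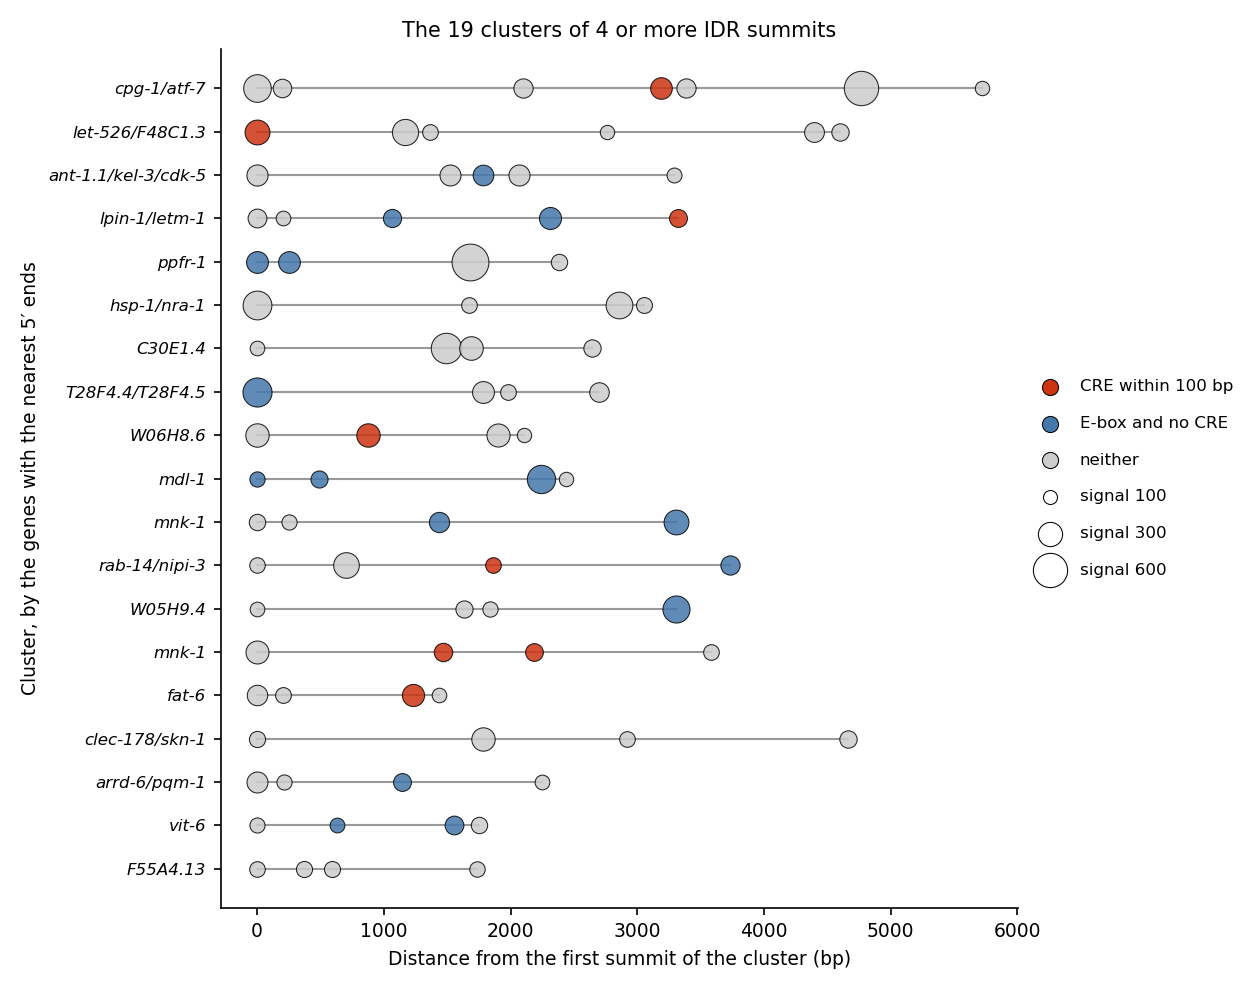
The 19 clusters of 4 or more summits, 1 per line, drawn by distance from the first summit in the direction of rising coordinates. Circle area is proportional to the pooled signal, and colour shows the CRE, the E-box without a CRE, or neither within 100 bp. Small circles stand close to the right of larger ones in many clusters, as at *hsp-1*, *W06H8.6* and *fat-6*, and only the second *mnk-1* cluster has the CRE at 2 summits.

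The cluster with the most summits was at *atf-7* itself, with 7 summits between 4491497 and 4497214 on chromosome III (ce11). The gene lies on the minus strand, so the first summits stand at its 3′ end. From low to high coordinate the pooled signals were 392, 176, 190, 240, 189, 604 and 106. In replicate 2 they were 166, 106, 64.2, 62.3, 43.3 and 264, with no summit found at the last. In replicate 3 they were 234, 87.2, 126, 188, 94.1, 340 and 83.2. The sixth summit, in an intron 1812 bp upstream of the nearest 5′ end of a shorter *atf-7* transcript, was the highest in all 3 lists. The fourth and the fifth lay 230 and 434 bp upstream of a 5′ end, inside an intron of the longer transcripts, and the fourth was the only one with the CRE, printed above. Overlaps joined 2 pairs of neighbours in it, which leaves 5 separate peaks. A second cluster of 3 summits stood in introns of *cct-5*, a subunit of the cytosolic chaperonin, at 4503015, 4503698 and 4504652, with pooled signals of 381, 115 and 124. Of the 13 IDR peaks within 20 kb of *atf-7*, 12 were clustered. The transgene holds *atf-7* sequence, and what its copies add to these values was not tested. Without the peaks within 20 kb there were 643 clustered peaks in 280 clusters, 61 of them with 3 or more summits.

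*mnk-1*, the worm's MAP kinase interacting kinase, which in mammals phosphorylates the cap-binding protein eIF4E, had 9 IDR summits in its span of 12624 bp and its promoters, the most of any gene, and all 9 were clustered. Its first cluster of 4 lay at 10546127 to 10549429 on chromosome II, with pooled signals of 138, 119, 210 and 315. The peaks of its first and second summits overlapped. In replicate 2 no summit was found at the first, and the others had 88.4, 84.8 and 144, while replicate 3 had 101, 27.8, 129 and 190. The strongest, 506 bp upstream of a 5′ end, was thus the highest in every list, and it and its neighbour both had the E-box. The second cluster began 2660 bp further on, at 10552089, and ended at 10555674, with pooled signals of 270, 175, 161 and 126. Its values were 93.4, 69.4, 62.7 and 27.5 in replicate 2 and 196, 118, 101 and 103 in replicate 3. Its middle summits both had the CRE, in a coding exon 147 bp downstream of a 5′ end and 88 bp upstream of one. The ninth summit, in the 3′ UTR at 10543512, formed a pair with one at 10542158, in a promoter of *pro-1*. The peaks of this pair also overlapped, with summits 1354 bp apart. The second cluster and the pair fell outside the rule for named clusters and were named after their values were seen.

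*nipi-3*, a Tribbles-type pseudokinase that acts in the epidermal antifungal response and upstream of *cebp-1*, shared a cluster of 4 separate peaks with *rab-14*, which encodes a small GTPase. The summits lay at 15606986 to 15610718 on the X chromosome. Their pooled signals were 123, 337, 126 and 190, with 47.9, 125, 50.9 and 83.0 in replicate 2 and 74.5, 215, 79.1 and 117 in replicate 3. The second summit, 281 bp upstream of *nipi-3*, was the highest and the fourth, beyond the 3′ end, the next in all 3 lists. The CRE was at the third, in an intron, and the E-box at the fourth, and the promoter summit had neither.

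*skn-1*, the bZIP factor of the oxidative stress response related to mammalian Nrf proteins, had 4 separate peaks over 4661 bp on chromosome IV, all in its introns. The pooled signals were 134, 280, 126 and 154. Replicate 2 had 49.9, 98.0 and 77.2 at the first, the second and the fourth and none at the third, and replicate 3 had 86.6, 185, 110 and 78.1. The second, 570 bp upstream of the 5′ end of a shorter transcript, was the highest throughout, and none of the 4 had the CRE or the E-box.

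*xbp-1*, the bZIP factor of the unfolded protein response of the endoplasmic reticulum, had the strongest summit of a cluster of 3 on chromosome III. This summit, 56 bp upstream, had a signal of 708 in the pooled list, 272 in replicate 2 and 437 in replicate 3, and the CRE printed above. The others lay beyond the 3′ end of *xbp-1*, nearest to the 5′ end of *asd-1*, which encodes a splicing factor, with pooled signals of 248 and 107 and an overlap between them. *dlk-1*, a MAP kinase kinase kinase of axon regeneration, had 3 intronic summits on chromosome I with pooled signals of 241, 136 and 107, the first pair overlapping and the third with the CRE. Its replicate values were incomplete, with 84.3 and 43.3 at the first pair in replicate 2, where the third had no summit, and 165 and 111 at the second and the third in replicate 3, where the first had none.

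**Figure D4:**
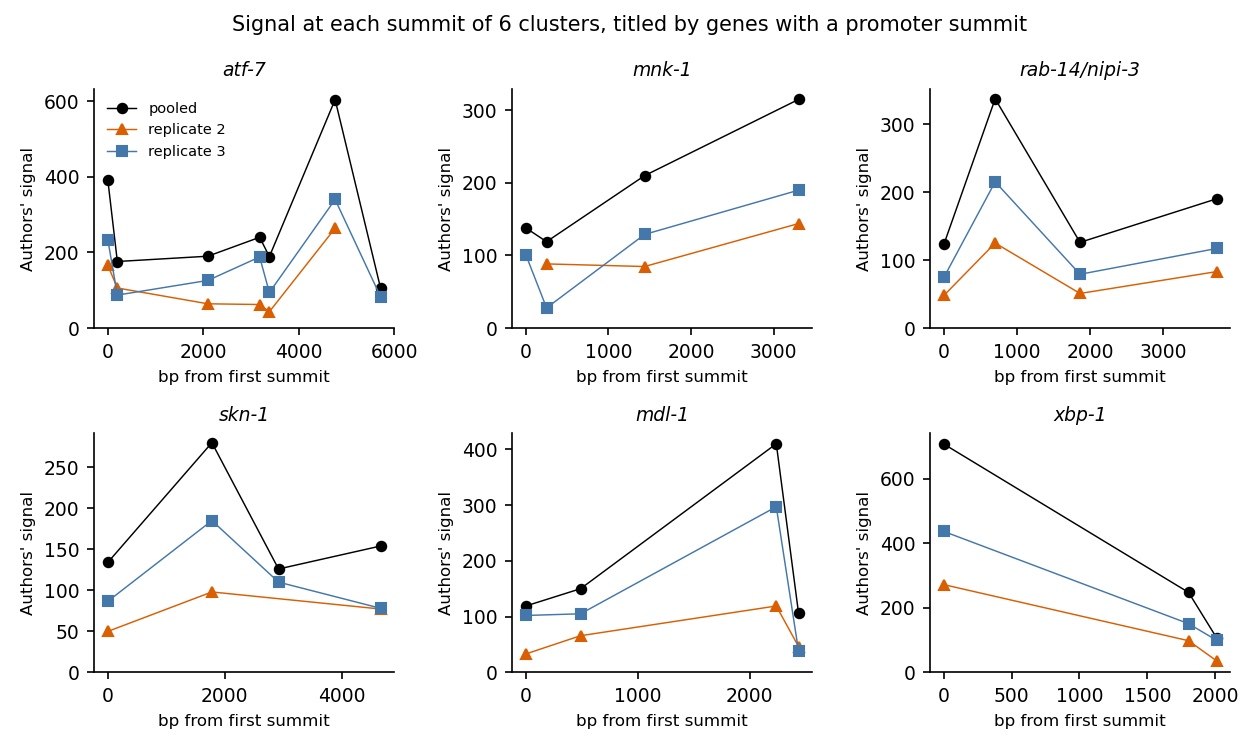
The authors' signal (vertical axis) at each summit of 6 clusters, by distance from the first summit (horizontal axis), in the pooled list and in replicates 2 and 3; a missing point is a summit not found within 100 bp, and lines join the points for reading only. The summit with the highest value is the same in both replicates, and in the pooled list made from them, in each of the 6 clusters. These 6 were picked by no set rule. Over all clusters with every summit found, the strongest was the same in 169 of 222, and it differed at *W06H8.6*, *hsp-1* and *ant-1.1*.

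Among clusters at other transcription and chromatin regulators, *mdl-1*, a basic helix-loop-helix protein of the Mad family, had 4 summits over 2437 bp on the X chromosome. Its pooled signals were 119, 150, 410 and 106, with 33.0, 65.7, 119 and 46.1 in replicate 2 and 102, 105, 297 and 38.1 in replicate 3. The third, which stood beyond the 3′ end, was the highest in every list and had the E-box, as had both promoter summits. *let-526*, a subunit of the SWI/SNF chromatin remodelling complex of the ARID1 type, had 6 intronic summits on chromosome I, the second most of any cluster, with pooled signals of 316, 351, 126, 105, 201 and 154. Replicate 2 had 122, 127, 68.2, 24.9, 79.9 and 55.7 there, and replicate 3 had 191, 223, 115, 91.2, 126 and 91.9. The first and the second were the highest in both, and the CRE was at the first summit.

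*zfp-1*, the worm's AF10-type chromatin factor, had 6 summits in 2 clusters of 3. The strongest, 628 bp upstream of a 5′ end inside the gene, had 556 in the pooled list, 215 in replicate 2 and 342 in replicate 3. *nhr-88*, a nuclear hormone receptor gene, had 3 separate peaks on chromosome II with pooled signals of 579, 272 and 114, with 188, 83.8 and 43.3 in replicate 2 and 391, 190 and 77.6 in replicate 3. The strongest lay 2496 bp upstream with the E-box and the next 910 bp upstream with the CRE, so the promoter summits were the weaker ones. At *mdt-26*, a subunit of the Mediator complex, the promoter summit 20 bp upstream had a pooled signal of 106, while those in a coding exon and an intron had 516 and 289.

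*rpl-3*, a protein of the large ribosomal subunit, had 1051 in the pooled list, 408 in replicate 2 and 642 in replicate 3 at a summit 274 bp upstream on chromosome III. Its second summit, in its 3′ UTR, had 231, 67.6 and 165 in these lists, and another, overlapping it, in the 3′ UTR of *tir-1*, the SARM-type adaptor of immune signalling, had 135, 15 and 83.1. *rpl-1* stood in a cluster of 3 promoter summits on chromosome I with *Y71F9AL.12* and *Y71F9AL.8*, with pooled signals of 129, 130 and 193. *hsp-1*, the constitutive Hsp70 chaperone, had 424 in the pooled list, 160 in replicate 2 and 267 in replicate 3 at 396 bp upstream, and 366, 172 and 191 at a summit beyond its 3′ end. The order of these differed between the replicates. Reads from Hsp70 genes may be shared among similar copies. *ant-1.1*, the adenine nucleotide carrier of the inner mitochondrial membrane, shared 5 summits with *kel-3*, a kelch-repeat gene, and *cdk-5*, a cyclin-dependent kinase gene. Their pooled signals were 230, 225, 219, 227 and 114, and the peaks of the second to the fourth overlapped. Replicate 2 had 95, 130, 82.2 and 54.3 at all but the second, where no summit was found, and replicate 3 had 134, 128, 91.1, 158 and 59. The first 4 were nearly level in the pooled list, and the highest was the third in replicate 2 and the fourth in replicate 3.

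Several clusters had no summit in any promoter, which was true of 19 of the 63 with 3 or more summits. Between *lpin-1*, the lipin phosphatidate phosphatase, and *letm-1*, a protein of the inner mitochondrial membrane, 5 peaks that did not overlap lay in 3320 bp of intergenic sequence on chromosome V. Their pooled signals were 181, 110, 170, 249 and 164, with 69.6, 18, 23.9, 73.1 and 59.3 in replicate 2 and 114, 75.9, 142, 176 and 102 in replicate 3. The fourth was the highest throughout, the E-box was at the third and the fourth, and the CRE at the fifth. *ppfr-1*, a regulatory subunit of protein phosphatase 4, had 4 intronic summits on chromosome I, at least 5724 bp from the nearest 5′ end. Their pooled signals were 244, 242, 695 and 137, the third with 253 in replicate 2 and 445 in replicate 3. *pqn-41*, which encodes a protein with a domain rich in glutamine and asparagine, had 3 separate intronic summits with pooled signals of 256, 512 and 265, and a pair 2130 bp before them with 542 and 107. Near *C30E1.4* on the X chromosome the 4 intergenic summits had 110, 475, 286 and 153, and near *ZK899.6*, also on X, 3 had 617, 147 and 236. A small RNA gene lay within 200 bp of the first summit near *C30E1.4* and of the third near *ZK899.6*.

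At *W06H8.6* on chromosome V, the pooled signals of 4 upstream summits were 281, 281, 273 and 105, with 77.0, 129, 66.7 and 19.3 in replicate 2 and 201, 154, 209 and 110 in replicate 3. The strongest summit was thus a different one in each replicate, the second in replicate 2 and the third in replicate 3. A small RNA gene lay within 200 bp of the first summit. At *T28F4.4* and *T28F4.5* on chromosome I the 4 summits had 434, 245, 127 and 195, and at *tos-1* on chromosome V 3 summits had 144, 639 and 213. Among clusters of 4 outside the rule for named ones, the one at *vit-6*, a vitellogenin, had all 4 summits in its coding exons, with pooled signals of 117, 112, 180 and 137. The one at *fat-6*, a stearoyl-CoA desaturase, had 214, 128, 252 and 109, with the CRE at the third, 32 bp downstream of the 5′ end. Its near-identical paralog *fat-7* may share reads with it. The one at *arrd-6* and *pqm-1*, a zinc finger factor, had 225, 117, 163 and 111, that near *W05H9.4* had 110, 151, 120 and 376, and that near *F55A4.13* and *nlf-1* had 125, 133, 132 and 122. These were named after their values were seen.

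With each run of overlapping neighbours counted once and no new chaining, 21 of the 63 clusters held 2 peaks, 35 held 3, 4 held 4 and 3 held 5. The clusters with 5 were those at *atf-7*, *let-526* and *lpin-1*, and those with 4 were at *nipi-3*, *skn-1* and *vit-6* and the second at *mnk-1*. At *let-526*, *lpin-1* and *vit-6* the count includes neighbours 204, 205 and 199 bp apart that did not overlap. These had the spacing of overlapping neighbours. The lower coordinate was also the stronger, with pooled signals of 201 and 154, 181 and 110, and 180 and 137.

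The 6 pairs with the highest weaker summit had pooled signals of 1326 and 367 at *serp-1.1*, of 1064 and 312 at *Y43F8B.2*, of 1047 and 285 upstream of *sup-26*, which encodes an RNA-binding protein, of 585 and 416 at *egg-5*, a pseudophosphatase of the egg-to-embryo transition, of 300 and 427 at *stdh-1* and *C06B3.7*, and of 424 and 285 in *dhc-4*, a dynein heavy chain gene. The peaks of 4 of these pairs, at *Y43F8B.2*, *sup-26*, *egg-5* and *dhc-4*, overlapped and had gaps of 206, 202, 208 and 200 bp. The pooled order held in both replicates at *serp-1.1*, *Y43F8B.2* and *sup-26*. At *stdh-1* and *C06B3.7* replicate 2 had 149 and 135, and replicate 3 had 149 and 285. In *dhc-4* the stronger summit was not found in replicate 2. At *egg-5* the stronger summit was not found in replicate 3, where the weaker had 369. At *serp-1.1* the gap was 1454 bp. The promoter summit there, 294 bp upstream, had 484 in replicate 2 and 845 in replicate 3, and the other, in a coding exon of the neighbouring *F59F4.3*, had 151 and 222. *Y43F8B.2* had 6 summits in 3 pairs, and the CRE was at 3 of them. A small RNA gene lay within 200 bp of both summits at *egg-5* (*sls-2.4*) and of both in *dhc-4* (*R07E5.16*).

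Several of these clusters had a summit at each end of 1 gene. In 70 clusters, 73 genes had a summit in their promoter and another, outside it, within 500 bp of their 3′ end. They included *atf-7*, *xbp-1*, *nipi-3*, *hsp-1* and *mdl-1*, and 9 genes of cytosolic ribosomal proteins. The promoter had the stronger of the 2 summits in 42 of the 73 genes. At *rpl-20* the pooled signals were 749 at the promoter and 179 at the 3′ end, at *rps-1* 443 and 114, and at *rps-19* 425 and 134. At *rpl-1* they were level, at 130 and 129, and at *rpl-43* and *rps-24* the promoter had the weaker summit, with 118 against 191 and 124 against 149. The summit at the 3′ end lay in a promoter of another gene in 33 of the 73, and could belong to either gene. Promoter summits could also be shared. That of *rpl-20* was nearer to *Y17G9B.5* (174 against 288 bp) and that of *rps-19* to *hsr-9* (155 against 290 bp). That of *rpl-1* was nearer to *Y71F9AL.9* (200 against 424 bp), while that of *rps-1* was nearest to *rps-1*. The 73 genes had a median span of 1079 bp, against 2027 bp for all 19973 protein-coding genes, and a short gene is more easily spanned by summits within 2000 bp. This count was made after the values were seen.

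Taken over all clusters, the summits were spread over promoters and gene bodies in many ways. In 53 clusters (18.7%) all summits lay in a promoter of the same gene, with a median span of 567 bp, and in 31 all lay in promoters with none shared by all. In 48 a promoter summit was joined by one in the body of the same gene, and these included 23 of the 63 clusters of 3 or more. A promoter summit was joined by summits outside that gene in 55. In 36 all summits lay in 1 gene with none in a promoter, and in 60 there was neither a promoter nor a single gene. The 50 clusters that were a single overlapping pair are counted in these classes. They made up many of the 53, as at *egg-5*, and some of the 36, as in *dhc-4*.

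Promoters held a smaller share of clustered than of isolated summits in this list. A promoter, taken around each 5′ end of the transcripts of protein-coding genes (1000 bp before it and 200 bp after), held 299 of the 655 clustered summits (45.6%, exact 95% interval 41.8 to 49.6), against 808 of 1592 isolated ones (50.8%, 48.3 to 53.2) and 49.3% of all IDR summits. The share was 49.8% (45.0 to 54.5) in pairs and 37.2% (30.7 to 44.0) in clusters of 3 or more. Among the 1123 IDR peaks with the highest signal, chained anew, the shares were 51.5% of clustered and 51.4% of isolated peaks, so the difference was not seen there. Introns held 28.1% (24.7 to 31.7) of clustered summits, 33.0% (26.8 to 39.7) of those in clusters of 3 or more, and 23.9% (21.9 to 26.1) of isolated ones. Intergenic sequence held 52.7% (48.8 to 56.6) of clustered and 60.3% (57.8 to 62.7) of isolated summits. Coding exons held 11.6% (9.25 to 14.3) of clustered and 9.05% (7.68 to 10.6) of isolated summits.

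**Figure D5:**
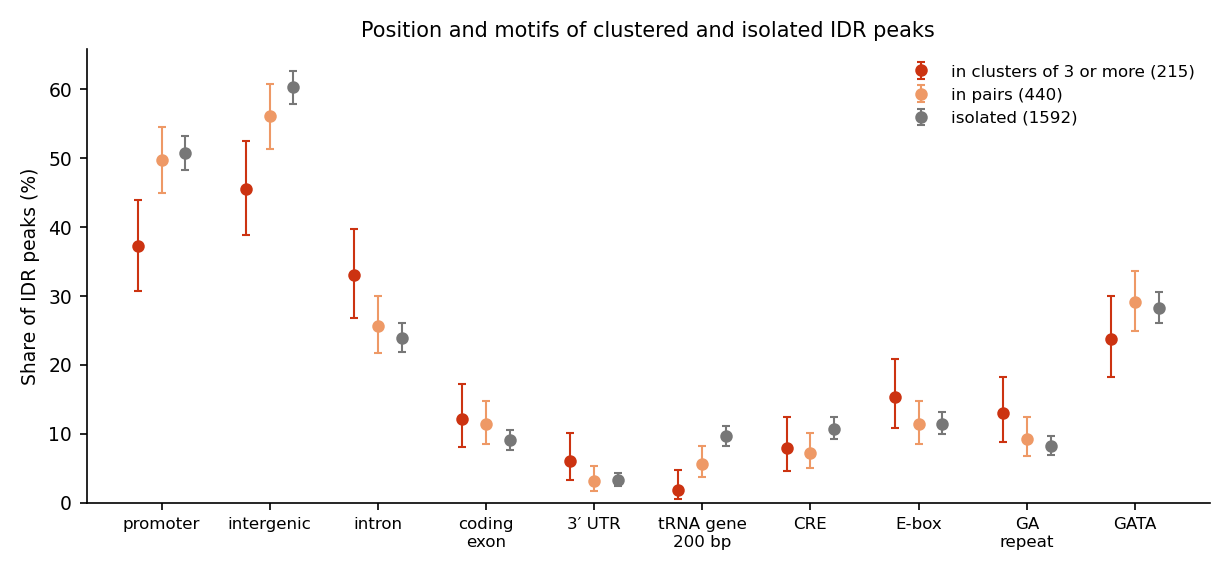
Share of IDR peaks (vertical axis, percent) with each position or with each motif within 100 bp of the summit, for peaks in clusters of 3 or more, in pairs and isolated, with the number of peaks in the legend. Points are shares and bars are exact 95% intervals. The intervals of clusters of 3 or more and of isolated peaks do not meet for promoters, intergenic sequence, introns and tRNA genes, and overlap for the other features shown.

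Genes of tRNAs, which are transcribed by RNA polymerase III, lay near a smaller share of clustered than of isolated summits. A tRNA gene lay within 200 bp of 29 clustered summits (4.43%, exact 95% interval 2.98 to 6.30), against 154 isolated ones (9.67%, 8.27 to 11.2) and 8.14% of all. In clusters of 3 or more the share was 1.86% (0.509 to 4.69), from 4 summits. Genes of snoRNAs, snRNAs, miRNAs and rRNAs lay within that distance of 5.34% of clustered and 5.09% of isolated summits. Without the peaks near tRNA genes 616 peaks were clustered, and the promoter shares were 46.6% of clustered and 53.6% of isolated peaks.

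The CRE lay within 100 bp of 49 clustered summits (7.48%, exact 95% interval 5.59 to 9.77), against 171 isolated ones (10.7%, 9.26 to 12.4) and 9.79% of all. These intervals overlap. The CREB core was at 39.2% of clustered and 40.8% of isolated summits and the GATA site TGATAA at 27.3% of clustered and 28.3% of isolated summits. The E-box was at 12.7% (10.2 to 15.5) of clustered, 15.3% (10.8 to 20.9) of those in clusters of 3 or more and 11.5% (9.97 to 13.2) of isolated summits. The repeat GAGAGAGA was at 10.5% of clustered and 8.17% of isolated summits.

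Most clusters with a motif had it at 1 summit. The CRE was present in 44 of the 283 clusters and at more than 1 summit in 5, of which those of 3 or more summits were the second *mnk-1* cluster and the one at *gei-4*. The E-box was present in 73 clusters and at more than 1 summit in 9, with *mdl-1* the only one with 3. At *gei-4* the CRE summits had pooled signals of 136 and 142, and a summit between them without it had 197. The strongest summit of a cluster had the CRE in 7.77% (4.94 to 11.5) of clusters and the other summits in 7.26% (4.84 to 10.4). The E-box was at 15.9% (11.8 to 20.7) of strongest and 10.2% (7.33 to 13.8) of other summits, and a promoter held 51.9% (46.0 to 57.9) of strongest and 40.9% (35.8 to 46.0) of other summits. Separate neighbours had the E-box at the stronger summit in 50 cases and at the weaker in 30, and the CRE at the stronger in 27 and at the weaker in 22. Overlapping neighbours had the CREB core at the stronger summit in 19 cases and at the weaker, which was nearly always that at the higher coordinate, in 35.

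An IDR summit of either kind lay in the promoter of 1249 of the 19973 protein-coding genes (6.25%), a clustered summit in that of 268 (1.34%), and a summit of a cluster of 3 or more in the promoter of 66. Gene lists were set beside these background shares with no test, since members and lists were chosen with earlier results known. Of 28 bZIP genes, 16 had an IDR summit in a promoter and 8 had a clustered one (28.6%). Besides *atf-7*, *skn-1* and *xbp-1* these were *cebp-1*, *crh-2*, *jun-1*, *let-607* and *zip-2*, all in pairs. *zip-2*, which responds to infection, had pooled signals of 187 and 594 at its promoter. *cebp-1*, the C/EBP factor that acts downstream of the DLK-1 pathway, had 397 and 263, the first with the CRE 175 bp upstream. *crh-2*, *jun-1* and *let-607*, a CREB3-type factor, each had 1 summit of a pair in the promoter, with 123, 117 and 116.

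Of 22 genes of stress MAP kinase signalling, 7 had a promoter summit and 6 a clustered one (27.3%). These were *atf-7*, *dlk-1*, *nipi-3* and *skn-1* in clusters of 3 or more, and *egl-30*, a Gq alpha subunit, and *vhp-1*, a MAP kinase phosphatase, in pairs. At *vhp-1* the summits had 672 in the gene body and 122 in a promoter 939 bp upstream of a 5′ end, and their peaks overlapped. At *egl-30* they had 262 and 165. The lists share *atf-7* and *skn-1*.

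Of 81 genes of cytosolic ribosomal proteins, 23 had a promoter summit and 11 a clustered one (13.6%), with *rpl-1* and *rpl-3* in clusters of 3 or more. Of 39 basic helix-loop-helix genes these numbers were 5 and 3, which were *mdl-1*, *hlh-11* and *hlh-30*, the TFEB-type regulator of lysosomal and lipid genes, with pooled signals of 113 and 150. Of 9 GATA genes only *elt-2*, the main factor of intestinal genes, had a promoter summit, with 175 in a pair. The endoplasmic reticulum stress list had 10 of 26 genes with a promoter summit and 1, *xbp-1*, with a clustered one, and the heat shock list had 9 of 19 and 1, *hsp-1*. Of 269 nuclear hormone receptor genes 24 had a promoter summit (8.92%, near the share of all genes) and 2, *nhr-49* and *nhr-88*, a clustered one. *nhr-49*, a regulator of fat metabolism, had pooled signals of 182 and 199.

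Other lists had few or no clustered promoter summits. The share over all genes was 1.34%, and counts this small do not set these lists apart from it. There were none among 39 translation factors, of which 9 had a promoter summit, 72 histone genes (3), 163 cuticle collagens (1), 10 genes of insulin signalling (2) and 6 vitellogenins (3). There was 1 among 87 homeobox genes, *ceh-99*, and 1 among 250 lysozymes and C-type lectins, *clec-126*, where the summit 79 bp upstream had the CRE. Histone and vitellogenin genes have near-identical copies, so their counts are uncertain. The first *vit-6* summit lay 206 bp downstream of the 5′ end, just outside the promoter, which reached 200 bp.

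Many summits of 1 gene did not always make a cluster. Of the 1681 genes with a summit in their span or promoter, 223 had at least 2, 51 at least 3 and 9 at least 5. These 9 were *mnk-1*, *Y43F8B.2*, *atf-7*, *let-526*, *zfp-1*, *pqn-41*, *ppfr-1*, *lin-14* and *daf-16*. *daf-16*, the FOXO factor of insulin signalling, had 5 summits over its 26206 bp, with pooled signals of 118, 109, 121, 131 and 175, but the first 4 were isolated, with gaps of at least 2123 bp between them. *lin-14*, a regulator of developmental timing, had 5 summits with 108, 107, 131, 121 and 106, of which 4 formed 2 pairs.

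All 6 chromosomes held clusters. The clustered share of IDR peaks was 31.9% on chromosome III, 31.1% on II and on IV, 30.5% on I, 26.5% on X and 25.2% on V, with exact 95% intervals of 27.1 to 36.9 on III and 20.9 to 29.9 on V that overlap. The X chromosome had the most clusters, 55, and the most of 3 or more, 15, with 491 IDR peaks in all.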

How the data were processed

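ATF-7 ChIP-seq peaks of 2 biological replicates of 1 group were analysed from the deposited peak lists in ce11. Per the labels, reads were mapped to ce10 and ce11. How reads were aligned, peaks called and the IDR cut-off set is not given in the sources used here. Control reads were not analysed here. The authors' deposited signal per peak is on a scale of its own in each list and was used to rank and describe peaks. Every IDR peak had the same deposited −log10 q, the highest value of the list, so that column was left out. The deposited summit offset, added to the peak's start, gave the summit, counted from 1. IDR peaks were all found in the relaxed list called on the pooled reads, and each was matched to the nearest summit within 100 bp in the relaxed list of each replicate.

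Summits within 2000 bp were chained with Python 3.11.15, numpy 2.4.6 and scipy 1.17.1, and figures were drawn with matplotlib 3.10.9. Genes came from Ensembl release 115 (WBcel235). Motif letters were matched on either strand of the 100 bp to each side of a summit. Chaining and motif search were tested on simulated data, the merging of overlapping peaks on a small made-up example, and promoter assignment on annotated genes. The intervals were not tested in this way. With 1 group no test between groups was possible, so shares carry exact Clopper-Pearson intervals at 95% and medians an exact binomial interval. These cover counting error only, and read depth is unknown.

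The members and the gene lists were chosen with earlier results of these data known. Clusters were ordered by number of summits and then by summed signal. Those named were the first 12, the 8 others of 3 or more with the highest summit, the 6 pairs with the highest weaker summit, and any of 3 or more with a promoter of a listed gene. Other names are said to be later choices, and genes of the lists are named throughout. The alternatives were other chaining distances, merged peaks, the 1123 strongest IDR peaks, 1 replicate alone, ce10, other windows, and leaving out peaks near *atf-7* or tRNA genes.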

Additional observations from a re-analysis of the deposited data

How the results depend on the processing

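The counts depended on the chaining distance and the list. With 500 bp there were 186 clustered peaks in 92 clusters, 2 of them with 3 or more summits, and with 1000 bp there were 321, 153 and 14. With 5000 bp there were 1045 clustered peaks and 136 clusters of 3 or more. Among the 1123 IDR peaks with the highest signal, chained anew, there were 241 clustered peaks in 110 clusters, 16 with 3 or more. Merging overlapping peaks left 41 clusters of 3 or more. These changes follow from the construction, which allows longer or shorter chains or leaves fewer peaks. With the 2247 strongest peaks of 1 replicate in place of the IDR list, clustered peaks ranged from 685 to 706, clusters from 290 to 299 and clusters of 3 or more from 72 to 76. The share of clustered peaks in a promoter was 51.5% among these 1123 (51.4% of isolated peaks) and 39.8% with promoters reaching 500 bp both ways (43.2% of isolated). The cause of the first was not tested. The CRE share was 5.38% with 500 bp chaining (10.2% of the rest). The median signal was 185 with 500 bp chaining and 219 among the 1123 (147 and 199 at the other peaks). The same summit was strongest in both replicates in 83.1% of clusters with 1000 bp chaining. Under the other alternatives the counts stayed within 1.5 times and the shares and medians within their intervals, and in ce10 the counts were 655, 283 and 63. No paired analysis was possible because there is 1 group. Depth is unknown, so whether it limits these counts could not be judged.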

Other observations

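Some clusters of 3 summits that the account above does not describe are given here. They were picked after their values were seen and stand as values only. Summits upstream of *mxl-3*, which encodes a Max-like basic helix-loop-helix protein, stood 2906, 4379 and 5881 bp from its 5′ end, with pooled signals of 177, 148 and 190 and the E-box at the first. A second cluster near *mdl-1*, in introns of *abts-4*, had 189, 221 and 228, with the E-box at the last. At *gdh-1*, glutamate dehydrogenase, and *tgt-1* the pooled signals were 333, 343 and 126, with the E-box at the last pair. At *sec-61.B* and *trap-3*, both of the machinery that moves proteins into the endoplasmic reticulum, and *eri-5* they were 126, 337 and 166, with the strongest 308 bp upstream of *trap-3*. At *dct-1* the summit 17 bp downstream of the 5′ end had 105, while those 2653 and 1311 bp upstream had 287 and 122.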
